A study of Mus musculus with 12 samples.

Results

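ATF4, the transcription factor at the centre of the integrated stress response, and 9 genes of its programme were followed in RNA-seq libraries of mouse small intestine. The members were chosen by name: Atf4, Ddit3, Chac1, Trib3, Asns, Atf3, Cebpb, Ppp1r15a, Ddit4 and Psat1. All 10 were among the 16942 genes of the deposited table, and all 10 passed the filter on low counts that left 12329 genes for testing. The choice by name set no threshold on a measured value, but it was made with earlier results of these data known.

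The study crossed 2 treatments in mice of the ICR strain, an outbred stock, with 3 libraries in each of 4 groups. AOS0 received neither busulfan nor AOS, AOS10 received AOS at the level labelled 10, B+A0 received busulfan without AOS, and B+A10 received busulfan with AOS at level 10. Busulfan is an alkylating drug used in chemotherapy that damages the DNA of dividing cells. The labels do not expand AOS or give the unit of its level, and no label states the age of the mice, the route or the interval to sampling. Nor is it stated that each library came from its own animal, so every p-value below measures the spread between libraries, which may be partly technical.

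The integrated stress response begins when one of several kinases phosphorylates the translation factor eIF2α, in response to unfolded protein in the endoplasmic reticulum (ER), shortage of amino acids, haem deficiency or double-stranded RNA. Most protein synthesis then slows, while translation of the ATF4 mRNA increases, and ATF4 switches on genes for amino acid supply, redox balance and, under prolonged stress, cell death. Since ATF4 is controlled largely at translation, its mRNA level is not a measure of its protein, and the mRNAs of its targets are commonly read in its place.

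Libraries held between 13560232 and 16818245 estimated counts. Levels are given as CPM, counts relative to library size after scaling by the trimmed mean of M values (TMM), unless stated otherwise. Libraries are numbered 1 to 3 within each group, and the plots call these numbers replicates. All 10 enterocyte markers were detected in every library, whereas the 6 smooth muscle markers summed to at most 3.70 CPM, in library 1 of B+A10. Summed enterocyte markers ran from 14279 to 16766 CPM in AOS0 and from 17234 to 19707 CPM in AOS10, but in libraries 2 and 3 of B+A0 they were 10267 and 10566 CPM against 19384 CPM in library 1. In B+A10 they ran from 12761 CPM in library 3 to 21341 CPM in library 2. Summed T and NK cell markers were 155.9 to 269.6 CPM in AOS0 and 147.0 to 185.7 CPM in AOS10. They were 36.0 to 99.9 CPM in B+A0 and 92.0 to 254.6 CPM in B+A10. Of the 9 such genes tested, 7 fell in B+A0 against AOS0, where 1.94% of all genes tested were lower. None of the 9 passed the test in B+A10, against AOS0 or against AOS10. Fewer cells of a type and less RNA per cell cannot be told apart in such bulk libraries, and the part of these shifts in the results below was not tested.

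The sequences just upstream of 5 members are shown because these are the genes whose levels passed the test after busulfan (Chac1, Psat1, Ddit3) or whose upstream sequence holds the composite C/EBP-ATF element (Chac1, Asns, Atf3) that ATF4 is known to bind together with a C/EBP partner. Each is the 250 bases before the RefSeq transcription start on build GRCm38.p6, 5′ to 3′ on the strand of the gene. Capitals mark a match to the element's core, TGATGNAA, on either strand. For Psat1 the more upstream of its 2 listed starts was taken.

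Chac1, chr2:119350992-119351241, plus strand: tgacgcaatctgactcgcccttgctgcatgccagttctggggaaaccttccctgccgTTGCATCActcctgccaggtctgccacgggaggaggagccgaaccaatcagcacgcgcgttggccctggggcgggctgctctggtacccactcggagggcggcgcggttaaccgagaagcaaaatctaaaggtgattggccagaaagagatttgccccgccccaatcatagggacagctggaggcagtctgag
Asns, chr6:7693210-7693459, minus strand: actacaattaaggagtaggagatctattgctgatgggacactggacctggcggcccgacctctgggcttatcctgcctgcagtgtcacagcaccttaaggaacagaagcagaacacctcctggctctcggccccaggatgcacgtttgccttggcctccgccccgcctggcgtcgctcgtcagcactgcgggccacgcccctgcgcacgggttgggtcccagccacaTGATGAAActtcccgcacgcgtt
Atf3, chr1:191183334-191183583, minus strand: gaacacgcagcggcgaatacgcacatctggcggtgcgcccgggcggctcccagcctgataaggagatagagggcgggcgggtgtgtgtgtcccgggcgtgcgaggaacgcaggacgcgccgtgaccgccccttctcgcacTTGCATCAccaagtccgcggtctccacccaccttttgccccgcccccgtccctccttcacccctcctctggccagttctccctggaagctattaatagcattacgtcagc
Psat1, chr19:15925060-15925309, minus strand: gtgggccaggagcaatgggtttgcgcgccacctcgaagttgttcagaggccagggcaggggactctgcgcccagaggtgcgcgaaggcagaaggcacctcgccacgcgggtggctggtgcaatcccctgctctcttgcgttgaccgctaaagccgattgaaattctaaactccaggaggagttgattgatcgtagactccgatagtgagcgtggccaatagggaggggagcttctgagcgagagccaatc
Ddit3, chr10:127290543-127290792, plus strand: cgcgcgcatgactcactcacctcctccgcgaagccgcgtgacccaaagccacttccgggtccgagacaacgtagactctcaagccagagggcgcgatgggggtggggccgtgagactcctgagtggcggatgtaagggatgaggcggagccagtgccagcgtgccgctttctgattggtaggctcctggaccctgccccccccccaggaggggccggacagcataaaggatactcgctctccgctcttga

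The core was found upstream of 3 of the 10 members. It lay 193 to 186 bases before the start of Chac1, 110 to 103 bases before that of Atf3 and 23 to 16 bases before that of Asns, and among all 32851 upstream windows of the same length 3.45% held it. The Chac1 and Atf3 matches had the same 8 bases, TTGCATCA, on the strand shown, while the Asns match read TGATGAAA. A full cyclic AMP response element, TGACGTCA, was found in 1.55% of all windows and upstream of Ppp1r15a alone among the members, 12 to 5 bases before its start. Neither the ER stress element (CCAAT and CCACG with 9 bases between), held by 0.113% of windows, nor the heat shock element (GAA, TTC and GAA, each 2 bases apart), held by 0.466%, was matched upstream of any member. Both strands were searched for each, and no matches overlapped. These are letters in a window, not measured binding.

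On the same build the protein-coding genes shown above lie at chr2:119351242-119354326 (Chac1), chr6:7675165-7693209 (Asns), chr1:191170296-191183333 (Atf3), chr19:15905123-15925059 (Psat1) and chr10:127290793-127296291 (Ddit3).

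The members covered a wide range of levels. On the length-corrected scale of the deposited table (FPKM, averaged over the 12 libraries), Atf4 stood highest at 189.1 FPKM, above 95.7% of the genes tested. Asns, the enzyme that makes asparagine, followed at 42.7 FPKM, then Ddit4 at 21.0, Cebpb at 19.0, Ddit3 at 16.0, Psat1 at 10.2, Atf3 at 7.71 and Chac1 at 3.77 FPKM. Ppp1r15a at 2.43 FPKM and Trib3 at 2.17 FPKM were lowest, above 22.6% and 21.3% of the genes tested. Chac1 differed 6.78-fold between its highest and lowest library, Atf3 3.67-fold and Trib3 3.15-fold, while Ddit3 differed 1.40-fold and Atf4 1.30-fold. Library 1 of B+A10 was the highest library for 4 members (Atf4, Chac1, Ppp1r15a and Ddit4) and library 1 of AOS10 for 3 (Ddit3, Atf3 and Cebpb). That B+A10 library also had the highest sum of 18 immediate early genes, 1960 CPM, against at most 1114 CPM outside B+A10. The part of this in the levels of the members was not tested.

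**Figure D1:**
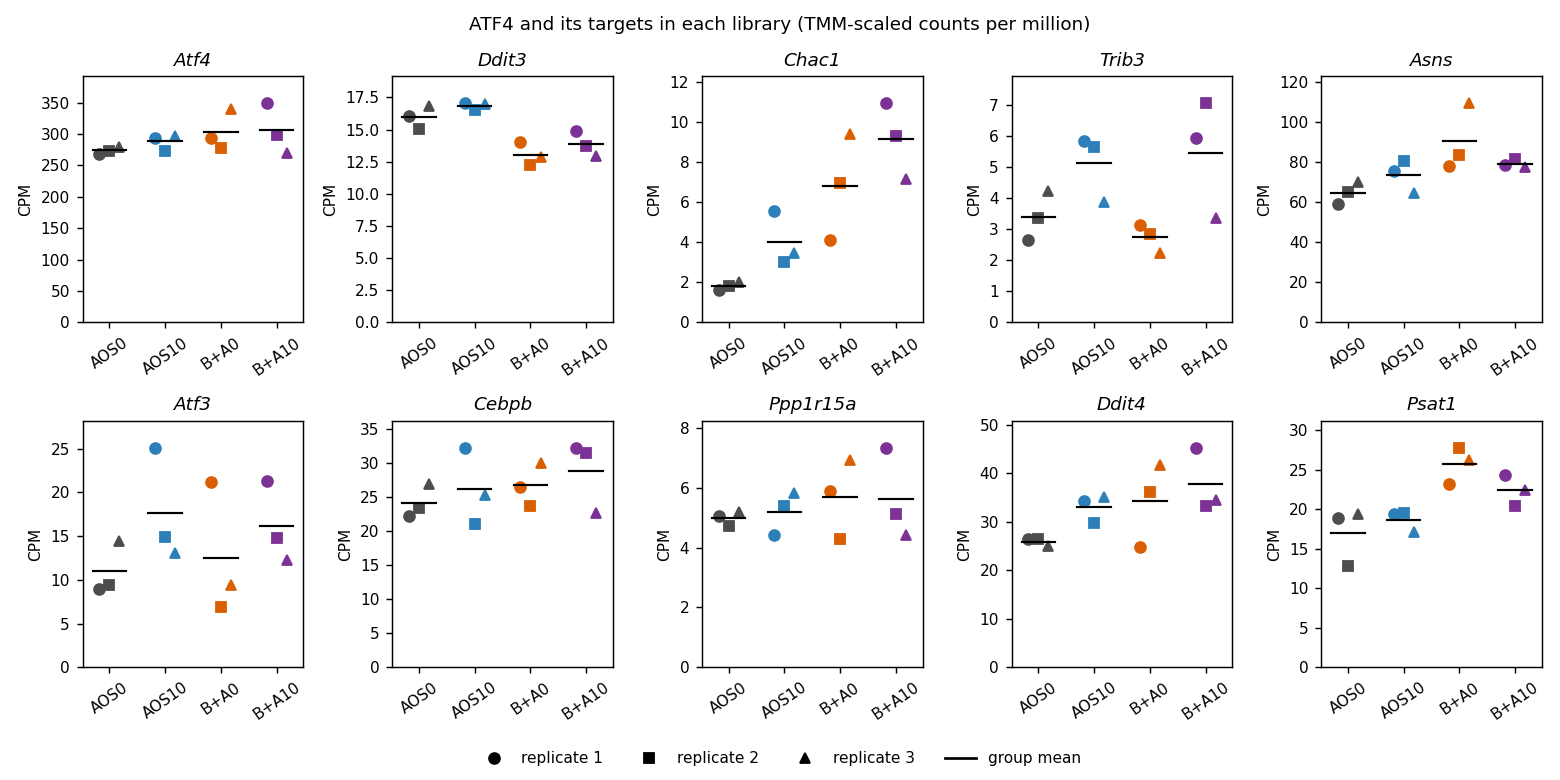
TMM-scaled CPM of each member (vertical axes, each from 0) in the 12 libraries by group, with symbols for replicates and a bar at the group mean. Chac1 runs from 1.62 in library 1 of AOS0 to 11.0 in library 1 of B+A10, and the busulfan libraries of Ddit3 lie below the others.

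Chac1 had the largest log2 fold change of the 10 members in each busulfan comparison, and it rose after busulfan, given alone or with AOS, when each is set against untreated mice. Psat1 rose by a smaller amount. Ddit3 fell slightly, and passed the test only for busulfan averaged over both AOS levels, a comparison added after the data were seen. The calls of Chac1 for busulfan alone, of Psat1 and of Ddit3 are each lost when certain single libraries are left out, while those of Chac1 for busulfan plus AOS and for busulfan averaged over both AOS levels are not. Atf4 itself and the other 6 targets passed the test in none of the 8 comparisons. After AOS no member passed, and neither did any other gene.

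Atf4 mRNA was 268.9, 273.7 and 279.7 CPM in the AOS0 libraries and 294.1, 273.4 and 297.2 CPM in AOS10. It was 293.6, 277.3 and 339.7 CPM in B+A0 and 349.8, 299.2 and 269.6 CPM in B+A10. The 4 groups overlapped, and the B+A10 libraries spanned nearly the whole range of the gene, with the highest level in library 1 and the second lowest in library 3. The log2 fold change of busulfan alone was 0.15 (SE 0.10, adjusted p = 0.434). All adjusted p-values are from edgeR's quasi-likelihood test with Benjamini-Hochberg adjustment over all 12329 genes, with a threshold of 0.05, unless another tool is named.

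Chac1 encodes an enzyme that breaks down glutathione, the main antioxidant thiol of the cell, and is a well-known target of ATF4. Its level was 1.62, 1.84 and 2.00 CPM in AOS0, 5.59, 3.05 and 3.47 CPM in AOS10, 4.14, 6.97 and 9.40 CPM in B+A0 and 11.0, 9.32 and 7.18 CPM in B+A10. Every library of the other 3 groups lay above every AOS0 library, and the B+A10 libraries also lay above every AOS10 library. Of all genes tested, 20.7% separated in either direction for AOS10 against AOS0 and 29.0% for B+A0 against AOS0. For B+A10 the share was 17.9% against AOS0 and 14.9% against AOS10. The Chac1 levels rest on 25 to 28 deposited counts in each AOS0 library and 117 to 181 in each B+A10 library. Relative counting noise is therefore largest in AOS0, although the spread between its libraries was the smallest of the 4 groups (coefficient of variation 10.4%). In group means Chac1 stood at 1.82 ± 0.190, 4.04 ± 1.36, 6.84 ± 2.63 and 9.16 ± 1.90 CPM (SD, n = 3 each). Only the step from AOS0 to AOS10 in that order separated neighbouring groups without overlap.

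Busulfan alone raised Chac1 by 1.92 on the log2 scale (SE 0.33, adjusted p = 0.0138), a 3.77-fold change. That call is lost without library 1 of AOS0 (adjusted p = 0.0648), library 3 of AOS0 (0.0508) or library 3 of B+A0 (0.0694), with log2 fold changes of 1.84, 1.99 and 1.63. Busulfan plus AOS, against the same untreated libraries, raised it by 2.34 (SE 0.32, adjusted p = 0.0064), which is 5.05-fold, and the call held without each library of those 2 groups in turn (adjusted p up to 0.0496). Within AOS-treated mice, B+A10 against AOS10, the log2 fold change was 1.18 (SE 0.29) with an adjusted p of 0.168, and DESeq2 called it (adjusted p = 0.0192). The interaction, which asks whether the busulfan difference depends on AOS, was -0.74 (SE 0.44, adjusted p = 0.762). These comparisons share libraries with one another and are not independent.

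A comparison added after the data were seen, of busulfan averaged over both AOS levels, sets the 6 busulfan libraries against the other 6 by group means. In it Chac1 rose by 1.55 (SE 0.22, adjusted p = 0.00326), or 2.92-fold, and it was called in all 12 fits that each left out 1 library (adjusted p up to 0.0127). The busulfan and other libraries overlapped through library 1 of AOS10 at 5.59 CPM and library 1 of B+A0 at 4.14 CPM. Library 1 of B+A0 was also the one B+A0 library whose enterocyte marker sum lay within the range of the groups without busulfan. Within B+A10, Chac1 was highest in library 1, with an enterocyte sum of 17733 CPM, and lowest in library 3, with 12761 CPM. The part of enterocyte content in the Chac1 values was not tested.

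Psat1 and Asns are enzymes of amino acid synthesis, Psat1 in the pathway to serine. Psat1 was 19.0, 12.8 and 19.5 CPM in AOS0 and 19.4, 19.6 and 17.1 CPM in AOS10. It was 23.3, 27.8 and 26.3 CPM in B+A0 and 24.3, 20.4 and 22.5 CPM in B+A10. All 6 busulfan libraries lay above all 6 others, a separation in either direction shown by 3.43% of the genes tested. Busulfan alone raised it by 0.60 (SE 0.15, adjusted p = 0.0446), or 1.51-fold, and busulfan averaged over both AOS levels by 0.43 (SE 0.10, adjusted p = 0.0336), or 1.35-fold. With AOS present the difference was 0.26 (SE 0.15, adjusted p = 0.6005), and the interaction was -0.34 (SE 0.21, adjusted p = 0.769). Busulfan plus AOS against AOS0 gave 0.39 (SE 0.15, adjusted p = 0.215).

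Both Psat1 calls lie close to the threshold. The call for busulfan alone is lost without any 1 AOS0 library (adjusted p = 0.0914, 0.0985 and 0.0796 without libraries 1, 2 and 3), without library 2 of B+A0 (0.124) and without library 3 of B+A0 (0.160), and remains without library 1 of B+A0 (0.0264). The averaged call is lost without any 1 AOS10 library (adjusted p = 0.0569, 0.0638 and 0.0787), without library 2 of B+A0 (0.0784) or 3 (0.0700) and without library 1 of B+A10 (0.0800). With the replicate number as a block both calls are lost (adjusted p = 0.0753 for busulfan alone and 0.0589 averaged), as they are in limma on log2(FPKM + 1) (0.0670 and 0.0527) and log2(FPKM + 0.1) (0.0647 and 0.0516), and the call for busulfan alone is lost in a fit of only AOS0 and B+A0 (0.0903).

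Asns was 59.2, 65.2 and 70.0 CPM in AOS0 and 75.4, 80.4 and 64.8 CPM in AOS10. It was 78.1, 83.6 and 109.6 CPM in B+A0 and 78.5, 81.5 and 77.7 CPM in B+A10. Each busulfan library lay above every AOS0 library, but AOS10 overlapped with B+A10. Of all genes tested, 29.0% separated in either direction for B+A0 against AOS0 and 17.9% for B+A10 against AOS0. The log2 fold change of busulfan alone, 0.48 (SE 0.12), missed the threshold narrowly with an adjusted p of 0.0501. It passed without library 1 of B+A0 (0.58, adjusted p = 0.0185), with no filter (adjusted p = 0.0386), with DESeq2 size factors in edgeR (adjusted p = 0.0495) and in DESeq2 (adjusted p = 0.00984). Averaged over both AOS levels the difference was 0.29 (SE 0.09, adjusted p = 0.0627), and it too passed without library 1 of B+A0 (0.35, adjusted p = 0.0218) and in DESeq2 (adjusted p = 0.0255).

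Ddit3 encodes CHOP, the transcription factor through which prolonged stress favours cell death, and is induced by ATF4 in many cells. Here its mRNA went the opposite way to Chac1. It was 16.1, 15.0 and 16.9 CPM in AOS0, 17.1, 16.5 and 17.0 CPM in AOS10, 14.0, 12.2 and 12.9 CPM in B+A0 and 14.9, 13.8 and 12.9 CPM in B+A10. All 6 busulfan libraries lay below all 6 others, a separation in either direction shown by 3.43% of the genes tested. The highest busulfan library was at 14.9 CPM, against 15.0 CPM in the lowest of the rest. The difference was small: it fell by 0.29 on the log2 scale averaged over both AOS levels (SE 0.07, adjusted p = 0.0348), to 0.819 of the level without busulfan.

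For busulfan alone the Ddit3 log2 fold change was -0.30 (SE 0.10, adjusted p = 0.110) and with AOS present -0.28 (SE 0.10, adjusted p = 0.350). Busulfan plus AOS against AOS0 gave -0.20 (SE 0.10, adjusted p = 0.355). The averaged call is lost without any 1 library of AOS0 (adjusted p = 0.0744, 0.0519 and 0.0865 without libraries 1, 2 and 3) or AOS10 (0.0768, 0.0758 and 0.0797), and without library 2 of B+A0 (0.0902) or 3 (0.0817). It holds without library 1 of B+A0 or any 1 of the B+A10 libraries, and the log2 fold change stayed between -0.31 and -0.26 in all 12 of these fits. The call is also lost with no filter on low counts (-0.27, adjusted p = 0.0594) and with the replicate number as a block (-0.29, adjusted p = 0.0612). In limma on log2(FPKM + 0.1), busulfan alone passed (-0.33, adjusted p = 0.0497).

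The remaining regulators did not pass the test for either treatment. Atf3, a stress-induced repressor that is also an early response gene, varied widely within groups, with 9.00, 9.44 and 14.4 CPM in AOS0, 25.1, 14.9 and 13.0 CPM in AOS10, 21.2, 6.85 and 9.46 CPM in B+A0 and 21.3, 14.8 and 12.3 CPM in B+A10. Library 1 was the highest of each treated group. Its log2 fold change after busulfan alone was 0.19 (SE 0.39) and turned to -0.42 without library 1 of B+A0. Cebpb, which encodes a partner of ATF4 at the composite element, had group means between 24.2 ± 2.48 CPM in AOS0 and 28.8 ± 5.30 CPM in B+A10 (SD, n = 3 each), with overlap throughout.

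Ppp1r15a encodes GADD34, which directs a phosphatase to eIF2α and so closes the feedback loop of the response. Its group means ran from 4.98 ± 0.235 CPM in AOS0 to 5.70 ± 1.32 CPM in B+A0 (SD, n = 3 each), and all groups overlapped. Ddit4, which encodes an inhibitor of the growth kinase complex mTORC1, was 26.4, 26.4 and 25.0 CPM in AOS0 and 34.4, 29.7 and 35.1 CPM in AOS10. In B+A0 it was 24.9, 36.1 and 41.8 CPM and in B+A10 45.3, 33.3 and 34.6 CPM. The AOS0 libraries lay close together and below all others except library 1 of B+A0, which was the lowest of the 12. AOS0 thus separated from AOS10, as 20.7% of all genes tested did in either direction, and from B+A10, as 17.9% did.

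For Ddit4, log2 fold changes from AOS0 were 0.35 (SE 0.17) after AOS, 0.40 (SE 0.17) after busulfan and 0.54 (SE 0.17) after both, with adjusted p-values of 0.802, 0.184 and 0.141. Without library 1 of B+A0, busulfan alone gave 0.59 (adjusted p = 0.0226) and the averaged comparison 0.40 (adjusted p = 0.0195). Ddit4 is also a textbook target of the glucocorticoid receptor. The summed glucocorticoid receptor targets stood at 499.0 to 552.0 CPM in AOS0 and 484.4 to 631.4 CPM in B+A0. They stood at 770.7 to 1285 CPM in AOS10 and 564.1 to 949.9 CPM in B+A10. Such a sum weighs abundant genes most. Of the 8 such genes tested, 6 lay above 0 for AOS alone (median log2 fold change 0.28) and 8 for AOS after busulfan (0.45). None was called in either, and 47.8% and 51.8% of all genes tested lay above 0. For busulfan plus AOS all 8 lay above 0 (median 0.50). Per1 rose there (1.39, adjusted p = 0.0220), and was called in 2 of 6 fits that each left out 1 library. For busulfan averaged, 4 lay above 0 and 4 below. Per1 rose (0.92, adjusted p = 0.0128), and was called in all 12 such fits. For busulfan alone, 5 lay above 0 and 3 below, with none called. The part of these genes in the Ddit4 values was not tested.

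Trib3 encodes a pseudokinase that restrains ATF4 and CHOP. It was 2.65, 3.34 and 4.22 CPM in AOS0 and 5.83, 5.64 and 3.87 CPM in AOS10. It was 3.14, 2.86 and 2.24 CPM in B+A0 and 5.94, 7.06 and 3.37 CPM in B+A10. After busulfan, each library with AOS lay above each without it, and 10.2% of all genes tested separated in one direction or the other in that comparison. The log2 fold change of AOS was 0.59 (SE 0.28, adjusted p = 0.802) without busulfan and 0.99 (SE 0.28, adjusted p = 0.302) after it.

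Averaged with and without busulfan, a comparison also added after the data were seen, the Trib3 difference for AOS was 0.79 (SE 0.20, adjusted p = 0.257). It passed without library 3 of B+A10 (0.92, adjusted p = 0.0391) and in DESeq2 (adjusted p = 0.0408). Without the same library, busulfan plus AOS against AOS0 also passed, at 0.94 (adjusted p = 0.0456), against 0.69 (SE 0.28, adjusted p = 0.259) with it. Within B+A0 and B+A10 the libraries with the lowest Trib3 level, both numbered 3, had enterocyte marker sums of 10566 and 12761 CPM, among the 3 lowest of the 12 libraries. The part of enterocyte content in the Trib3 values was not tested.

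**Figure D2:**
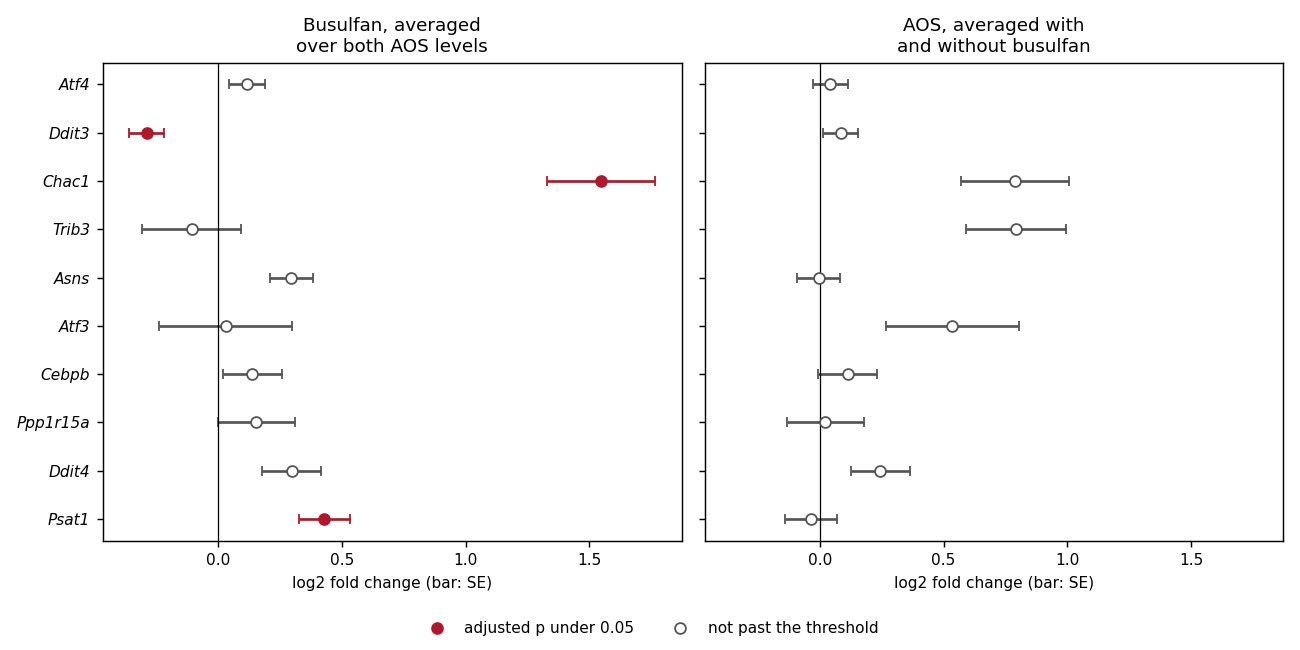
Log2 fold changes of the 10 members, with bars of 1 SE, for busulfan averaged over both AOS levels (left) and for AOS averaged with and without busulfan (right). Filled points passed the test: Chac1 at 1.55, Psat1 at 0.43 and Ddit3 at -0.29 for busulfan, and none for AOS.

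Read as a group, 2 of the 10 members rose after busulfan alone (Chac1 and Psat1) and none fell, where 1.70% of all genes tested were higher and 1.94% lower. In that comparison the groups did not overlap for 4 members (Chac1, Psat1, Asns and Ddit3), against 29.0% of all genes. The members' median log2 fold change was 0.19, against -0.01 over all genes tested, and 8 of the 10 lay above 0. For busulfan plus AOS, 1 member rose, Chac1, where 0.754% of all genes tested were higher and 0.203% lower, and 5 members did not overlap (those 4 and Ddit4), against 17.9% of all genes. In the averaged busulfan comparison 2 members rose and 1 fell, where 3.30% of all genes were higher and 2.73% lower.

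For busulfan in AOS-treated mice no member was called, and 0.162% of all genes were. The groups did not overlap there for 3 members (Chac1, Psat1 and Ddit3), against 14.9% of all genes. The counts of members depend on single libraries: for busulfan alone they ranged from 0 without library 1 of AOS0, library 3 of AOS0 or library 3 of B+A0, through 1 without library 2 of AOS0 or library 2 of B+A0, to 4 without library 1 of B+A0. In the averaged comparison the count that rose was 1 without any 1 AOS10 library, library 2 or 3 of B+A0 or library 1 of B+A10, and 4 without library 1 of B+A0.

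No gene of the whole table passed for AOS alone, for AOS after busulfan, for AOS averaged or for the interaction (0% called in each). At an unadjusted p under 0.05 there were 768, 1210, 1191 and 844 such genes, and DESeq2 called 63, 82, 92 and 17. For AOS alone the 10 members all had log2 fold changes above 0, with a median of 0.16, where 47.8% of all genes tested lay above 0 with a median of -0.0087. Of the 10, Cebpb, Ppp1r15a and Psat1 turned below 0 in 1 of the 6 fits that each left out a library of those groups: Cebpb without library 1 of AOS10 (-0.061), Ppp1r15a without library 3 of AOS10 (-0.021) and Psat1 without library 2 of AOS0 (-0.035). Chac1 and Ddit4, 2 of the 10, did not overlap with AOS0, against 20.7% of all genes. The member with the smallest p was Chac1, at 1.16 (SE 0.34, adjusted p = 0.488), a 2.23-fold difference that did not pass the test.

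The genes around the members were read in lists for the pathway. Over all genes tested, 1.70% were higher and 1.94% lower after busulfan alone, and 3.30% higher and 2.73% lower in the averaged comparison. Upstream of ATF4, among 15 genes for the eIF2α kinases, eIF2, its exchange factor eIF2B, the eIF2α phosphatase and the regulators Dnajc3 and Nck1, 1 rose after busulfan alone and 3 in the averaged comparison, and none fell. Eif2ak3, which encodes PERK, the kinase that senses unfolded protein in the ER, was 28.3, 30.0 and 28.9 CPM in AOS0 and 28.6, 29.0 and 29.7 CPM in AOS10, against 45.6, 39.8 and 37.7 CPM in B+A0 and 40.4, 35.6 and 37.3 CPM in B+A10. All 6 busulfan libraries lay well above the narrow band of the other 6, a separation in either direction shown by 3.43% of the genes tested. It rose by 0.50 after busulfan alone (SE 0.09, adjusted p = 0.0173) and by 0.44 in the averaged comparison (SE 0.06, adjusted p = 0.00348). The single-comparison call is lost without library 1 of AOS0 or library 3 of AOS0, where no gene of the list passed.

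The other calls of that list, in the averaged comparison, were Ppp1r15b (0.28, adjusted p = 0.0130), which encodes the constitutive partner of the eIF2α phosphatase, and Dnajc3 (0.37, adjusted p = 0.0358), an ER co-chaperone that also inhibits eIF2α kinases and is counted in the list of ER genes below as well. Dnajc3 was called in 4 of the 12 fits that each left out 1 library, and Eif2ak3 and Ppp1r15b in all 12. The median of the 15 genes was 0.10, with 13 above 0, where the median over all genes tested was 0.00038. The count was 2 to 4 over the fits that left out 1 library, and 2 without any 1 of the AOS0 or AOS10 libraries and without library 2 or 3 of B+A0.

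Of the other ATF4 targets, transporters that bring amino acids into the cell were counted first. In the averaged comparison 4 of 9 rose and none fell, with a median of 0.21 and 8 above 0. Of all genes tested, 3.30% were higher there and 2.73% lower. Slc38a2, a carrier of small neutral amino acids, was 131.4, 149.5 and 133.0 CPM in AOS0, 121.0, 127.1 and 126.3 CPM in AOS10, 153.1, 177.8 and 175.2 CPM in B+A0 and 258.4, 197.8 and 227.1 CPM in B+A10. The B+A10 libraries were the 3 highest, and it rose by 0.58 (SE 0.07, adjusted p = 0.00175) averaged and by 0.87 (SE 0.10, adjusted p = 0.0164) within AOS-treated mice. The averaged call held in all 12 fits that each left out 1 library, but the call within AOS-treated mice is lost without any 1 AOS10 library (adjusted p = 0.138, 0.148 and 0.0641 without libraries 1, 2 and 3) and without library 1 of B+A10 (0.0709). The interaction for Slc38a2 was 0.58 (SE 0.14, adjusted p = 0.499). Slc7a5, the light chain of a carrier of large neutral amino acids, rose by 0.84 after busulfan alone (adjusted p = 0.0387) and by 0.76 averaged (adjusted p = 0.0114).

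Slc1a4 (0.44, adjusted p = 0.0281) and Slc7a1 (0.33, adjusted p = 0.0391) completed the 4. The count of transporters that rose was 2 without library 1 or 3 of AOS0, library 2 or 3 of AOS10, library 2 or 3 of B+A0, or library 1 of B+A10. After busulfan alone 1 of the 9 rose, where 1.70% of all genes tested were higher. None of the 9 did so without any 1 of the AOS0 libraries or without library 2 or 3 of B+A0.

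Of 11 amino acid and one-carbon enzymes apart from Asns and Psat1, none passed in the averaged comparison, with a median of 0.02, and the smallest p-values were those of Mthfd2, a mitochondrial folate enzyme (0.38, adjusted p = 0.0719), and Shmt2, the mitochondrial serine hydroxymethyltransferase (0.31, adjusted p = 0.125). After busulfan alone 1 of the 11 rose, where 1.70% of all genes tested were higher. This was Got1, an aspartate aminotransferase (0.31, adjusted p = 0.0478). It passed in none of the fits that left out a library of AOS0 or library 2 or 3 of B+A0.

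Of 12 further stress regulators tested, 1 rose in the averaged comparison, where 3.30% of all genes tested were higher. This gene, Herpud1, takes part in the removal of misfolded ER proteins. It was 68.1 to 81.6 CPM in AOS0, 93.9 to 103.2 CPM in AOS10, 127.4 to 180.4 CPM in B+A0 and 159.5 to 203.4 CPM in B+A10. It rose by 1.01 after busulfan alone (adjusted p = 0.0052), by 0.83 in AOS-treated mice (adjusted p = 0.0332) and by 0.92 averaged (adjusted p = 0.000445). The call in AOS-treated mice is lost without any 1 AOS10 library (adjusted p = 0.146, 0.180 and 0.117 without libraries 1, 2 and 3) and without library 1 of B+A10 (0.175), while the other 2 calls held without each library in turn. The list's median in the averaged comparison was 0.18, with 7 of 12 above 0.

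Among 13 genes for cytosolic aminoacyl-tRNA synthetases, which charge tRNAs with amino acids, and for tRNA export, 3 rose in the averaged comparison, 12 lay above 0 and the median was 0.16. In that comparison 3.30% of all genes tested were higher. The 3 of the list were Yars (0.33, adjusted p = 0.0161), Iars (0.30, adjusted p = 0.0289) and Cars (0.21, adjusted p = 0.0437). After busulfan alone the 2 that rose were Yars (0.50, adjusted p = 0.0202) and Cars (0.36, adjusted p = 0.0328), where 1.70% of all genes tested were higher. These counts were unstable. The averaged count was 1 without library 1 or 3 of AOS0, any 1 AOS10 library, library 2 or 3 of B+A0, or library 1 of B+A10. It was 2 without library 2 of AOS0, 5 without library 2 of B+A10 and 7 without library 1 of B+A0. The count after busulfan alone was 0 without library 1 or 3 of AOS0 or library 3 of B+A0. It was 1 without library 2 of either group and 5 without library 1 of B+A0.

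The last list held ER chaperones together with further genes linked mainly to the ATF6 and XBP1 arms of the unfolded protein response (UPR). Beside chaperones and folding enzymes it includes the degradation factors Sel1l, Syvn1 and Edem1, the transcription factors Xbp1 and Atf6 and the sensor Ern1. In the averaged comparison 15 of 20 rose, none fell, all 20 lay above 0 and the median was 0.38. Among all genes tested, 3.30% were higher there and 2.73% lower. The largest changes among those named by the smallest p were Creld2 (0.91, adjusted p = 0.000262), Hyou1 (0.80, adjusted p = 0.000262) and Hspa5, the chaperone BiP (0.66, adjusted p = 0.00194), followed by the disulphide isomerase gene Pdia4 (0.64), Syvn1, which encodes a ubiquitin ligase (0.63), and Manf (0.53). Hspa5 was 632.9 to 695.8 CPM in AOS0 and 643.3 to 765.0 CPM in AOS10, against 1078 to 1140 CPM in B+A0 and 862.6 to 1256 CPM in B+A10. After busulfan alone 12 of the 20 rose, where 1.70% of all genes tested were higher. The count of the list was 5, 8 and 6 without library 1 of AOS0, library 3 of AOS0 and library 3 of B+A0. No gene of any of these lists passed for AOS.

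**Figure D3:**
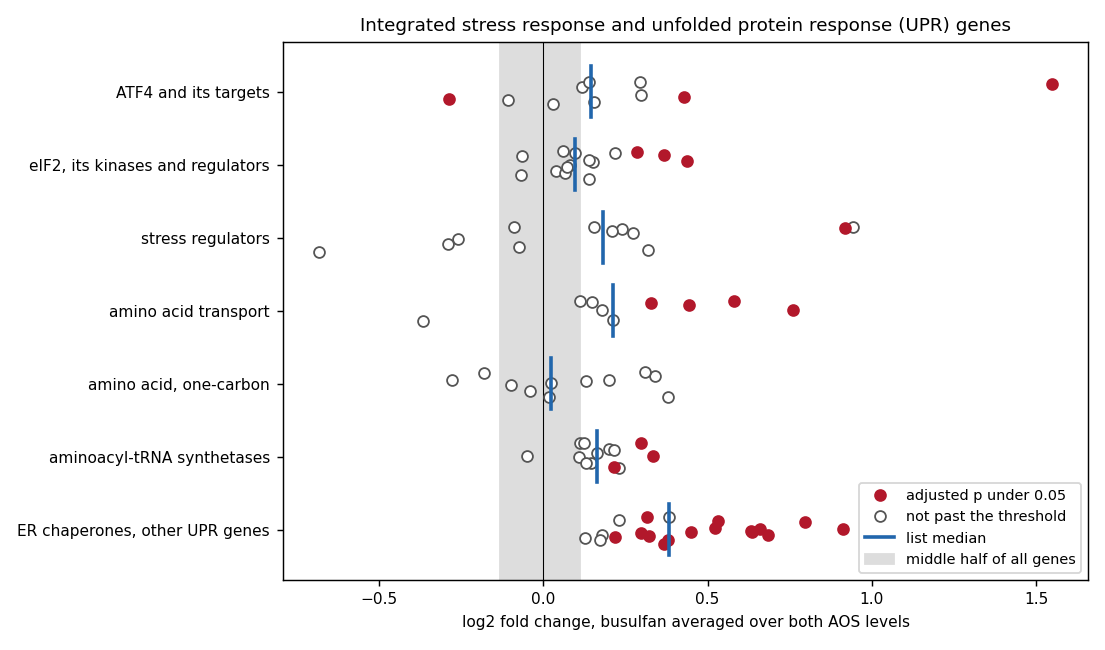
Log2 fold changes of single genes for busulfan averaged over both AOS levels, by list, with the list median as a bar and the interquartile range of all genes tested as a grey band. Filled points passed the test: 3 members (2 higher and 1 lower) and 15 of 20 genes of the list of ER chaperones and other UPR genes. In the other lists they are 3 upstream genes, 4 transporters, 1 stress regulator, 3 genes of the synthetase list and none of the amino acid and one-carbon enzymes.

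For Atf4, Ddit3, Chac1, Trib3, Asns and Psat1, other genes were ranked by how closely they followed the member. The measure was the mean absolute difference between centred log2 CPM over the 12 libraries. The ranking took in 11302 tested genes whose mean level reached 1 CPM, those of the lists included. Genes with provisional symbols (Gm and a number, LOC or ending in Rik) were left out. For Chac1 the closest were Hspa1b, an inducible cytosolic heat shock protein (0.26), Banp, which encodes a nuclear DNA-binding protein (0.29), and Serpinh1, a collagen chaperone of the ER (0.31), where the own mean absolute deviation of Chac1 was 0.83. Hspa1b and its near-identical copy Hspa1a may share reads, so its level is uncertain. Each of the 3 had its lowest library in AOS0, as Chac1 did, and its highest in library 1 of B+A10. After busulfan alone they rose by 1.88 (Hspa1b, adjusted p = 0.0198), 1.79 (Banp, adjusted p = 0.00125) and 1.39 (Serpinh1, adjusted p = 0.0474). Since they were selected for this likeness, those values are a description.

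**Figure D4:**
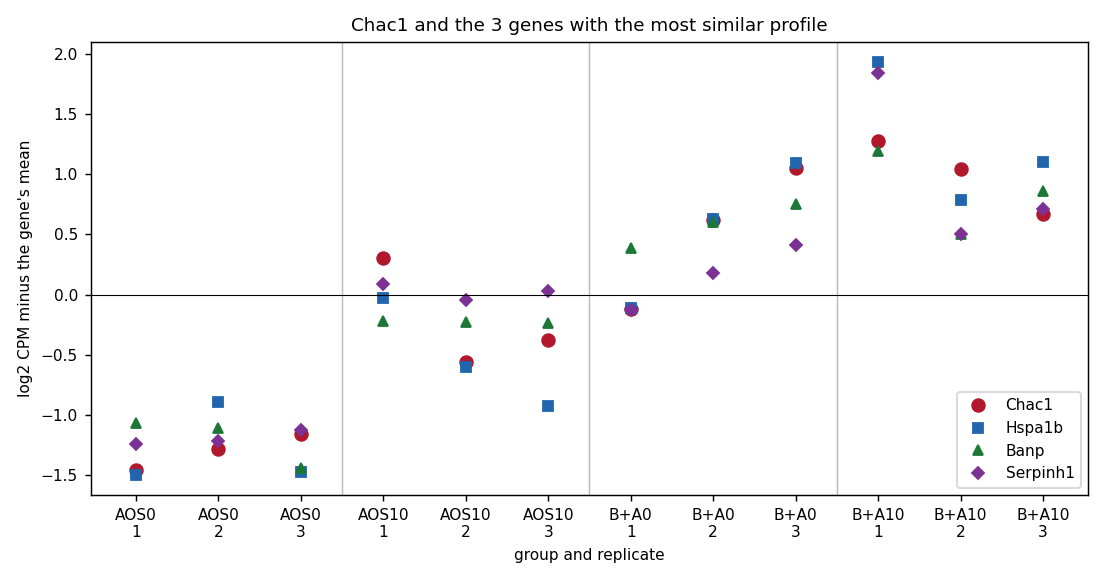
Centred log2 CPM (vertical axis) of Chac1 and the 3 genes with the most similar profile in each of the 12 libraries (horizontal axis). The lowest library of each gene is one of AOS0, and all 4 are highest in B+A10 replicate 1.

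For Atf4 the closest genes were Sh3gl1 (0.032), Szrd1 (0.034) and Grk2 (0.037). For Ddit3 they were Dhx34 (0.055), Sh2b3 (0.058) and Hsdl1 (0.060), and for Psat1 Smn1 (0.098), Tbccd1 (0.11) and Alg8 (0.11). For Asns the closest genes were Yars (0.079), Cars (0.081) and Naa38 (0.083), of which Yars and Cars belong to the synthetase list. For Trib3 they were Anpep (0.20) and Cyp4b1 (0.21), which encode a brush border peptidase and a cytochrome P450, and the cell cycle inhibitor gene Cdkn1a (0.21). Anpep is among the enterocyte markers. Among the members themselves, Atf4 and Cebpb were closest (0.11) and Ddit3 and Chac1 farthest apart (0.92). The measure depends on how much each gene varied. The own mean absolute deviation was 0.093 for Atf4, 0.15 for Ddit3, 0.22 for Psat1, 0.16 for Asns, 0.44 for Trib3 and 0.83 for Chac1. The distance between Atf4 and Cebpb exceeds the deviation of Atf4 itself, so it does not show that these genes varied together.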

How the data were processed

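RNA-seq of 12 mouse small intestine libraries was analysed from a gene table. Its columns of estimated counts, deposited by the authors, are not all whole (8.90% to 9.33% of values were not, within 1e-06) and were rounded. Its second set of columns was read as FPKM from the file headers and the values: the deposited FPKM matched counts scaled by depth and gene length within 0.149% for 5071 genes. Per the submitters' processing notes, mm10 was the genome build used. How reads were aligned and counted is not given in the sources used here. The 8 columns of group averages were not used.

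edgeR 4.0.16 (R 4.3.3) was fitted to all 12 libraries with TMM scaling (factors 0.969 to 1.05), filterByExpr and the quasi-likelihood test. The standard error was the coefficient divided by the square root of F. There were 6 planned comparisons and 2 added after the data were seen. limma 3.58.1, on log2(FPKM + 1) and log2(FPKM + 0.1), and DESeq2 1.42.0 were alternatives. The fits were tested on simulated data. Replicates of a group differed beyond sampling noise (chi-square per degree of freedom 8.56 to 36.6).

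The members and lists were chosen with earlier results of these data known. All members are named. From each pathway list up to 6 genes past the threshold with the smallest p are named, or 2 where none passed. Promoter sequences and gene symbols are from RefSeq, GRCm38.p6.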

Additional observations from a re-analysis of the deposited data

How the results depend on the processing

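Of 1270 member values under alternative settings, 1157 kept their direction and side of the threshold, 31 lost a call, 13 gained one and 69 changed sign, none of which had been called. DESeq2 called 1025 genes for busulfan alone, 63 for AOS alone, 82 for AOS after busulfan, 138 for busulfan with AOS (1 member, Chac1), 463 for busulfan plus AOS, 17 for the interaction, 1273 for busulfan averaged and 92 for AOS averaged (1 member, Trib3). With no filter the counts were 8 for AOS alone, 5 for AOS after busulfan and 40 for busulfan with AOS, and 0 members fell in the averaged comparison (Ddit3 lost its call). Fits of only the groups compared gave 1 member (Psat1 lost its call) and 241 genes for busulfan alone, 62 for AOS alone, 0 for busulfan with AOS and 18 for busulfan plus AOS. Same-numbered libraries did not deviate together (18 pairs, r -0.153 to 0.153, and 1 of 12 libraries correlated best with its own number). With the replicate block there were 1 member and 193 genes for busulfan alone, 15 genes for AOS alone, 4 for AOS after busulfan, 3 for busulfan with AOS, 1 member higher, 0 lower and 386 genes for busulfan averaged (Psat1 lost both calls and Ddit3 its own), and 15 genes for AOS averaged. limma on log2(FPKM + 1) and log2(FPKM + 0.1) gave 1 member higher for busulfan alone and averaged (Psat1 lost both calls), 1 lower (Ddit3) for busulfan alone with the smaller pseudocount, and 2 and 7 genes for busulfan with AOS. The cause was not tested.

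Leaving out 1 library at a time gave 21 to 1099 genes for busulfan alone, 0 to 13 for AOS alone, 0 to 51 for AOS after busulfan, 0 to 61 for busulfan with AOS, 12 to 763 for busulfan plus AOS (1 to 2 members), 0 to 1 for the interaction, 250 to 1395 for busulfan averaged (1 to 4 members higher, 0 to 1 lower), 0 to 102 for AOS averaged (0 to 1 members) and 0 to 4 members for busulfan alone.

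Small uncalled log2 fold changes that changed sign were Atf4 for AOS after busulfan (-0.0039 in both limma fits), Cebpb for the interaction (0.0025 with the block, 0.026 and 0.027 in limma), Atf3 for busulfan averaged (-0.032 with the block, -0.042 and -0.052 in limma), Ppp1r15a for AOS averaged (-0.0016 and -0.0038 in limma) and Asns for AOS averaged (0.0017 with DESeq2, its size factors and the block, 0.0019 with no filter). With 1 library left out, these uncalled values spanned 0: for AOS after busulfan, Atf4 -0.096 to 0.10, Ddit4 -0.041 to 0.31 and Ppp1r15a -0.26 to 0.15. For AOS alone they were Cebpb -0.061 to 0.26, Ppp1r15a -0.021 to 0.17 and Psat1 -0.035 to 0.23. For AOS averaged they were Asns -0.048 to 0.079, Atf4 -0.011 to 0.089, Ppp1r15a -0.098 to 0.11 and Psat1 -0.12 to 0.019. For busulfan alone Atf3 ran from -0.42 to 0.49, and averaged Atf3 from -0.27 to 0.21 and Trib3 from -0.21 to 0.021. For busulfan plus AOS Ppp1r15a ran from -0.062 to 0.32. For busulfan with AOS they were Atf3 -0.39 to 0.22, Atf4 -0.019 to 0.17, Ppp1r15a -0.12 to 0.26 and Trib3 -0.13 to 0.34. For the interaction they were Atf3 -0.62 to 0.29, Atf4 -0.17 to 0.029, Cebpb -0.14 to 0.17, Ddit3 -0.043 to 0.072 and Ppp1r15a -0.32 to 0.085.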
